A study of Drosophila melanogaster with 6 samples.

Results

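The nuclear alanine tRNAs are the cytosolic tRNAs that carry alanine to the ribosome, and the table of tRNA levels holds 5 of them among 84 nuclear isodecoders and 106 tRNAs in all. They were taken by their name and origin in the table. Their levels were no part of that rule, though earlier results of these data were known. An isodecoder is a tRNA that differs in sequence from others with the same anticodon. Hydro-tRNAseq, which breaks tRNAs into fragments with mild alkali so that modified bases and folds stop fewer reads, was run on RNA of whole brains from L3 larvae reared at 25 °C according to the sample labels. The 3 neuroblast-biased samples carried insc-Gal4>UAS-aPKC_caax, in which a membrane-targeted aPKC is driven in neuroblasts, the neural stem cells, and fills the brain with ectopic neuroblasts. The 3 neuron-biased samples were wild-type brains, of the strain that the labels give as Oregon R and the methods as Oregon-R-P2, which hold mostly neurons but also glia and some neuroblasts. No group carried insc-Gal4 or UAS-aPKC_caax alone, so transgene, background strain and cell content cannot be told apart. Neither can fewer cells of a type and less tRNA per cell, since whole brains were pooled as RNA. The results and the methods of the study give different larval ages, and the methods give the rearing temperature as a range that ends at 25 °C. The table lists tRNAs only, so the labelled cell content could not be checked against marker genes. The table gives 1 value per tRNA and group, the authors' mean of the TMM-normalized read count over the samples of a group (mean TMM, a scale that adjusts libraries for depth and composition). No value per sample was used, the spread between samples and the depth of the libraries are unknown here, and every difference below is therefore a description without a test.

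Alanine has 4 codons, all starting with GC. In eukaryotes the first base of an AGC anticodon is converted from adenosine to inosine, which pairs with U and C, and weakly with A, so that tRNA Ala-AGC reads GCU and GCC. Ala-TGC, whose first base is U in the RNA, reads GCA and by wobble GCG, and Ala-CGC reads GCG alone. The alanyl-tRNA synthetase recognizes a G:U pair in the acceptor stem rather than the anticodon, so all of these tRNAs are charged by the same enzyme.

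In the table, the AGC anticodon is represented by Ala-AGC-1-1 and Ala-AGC-2-3, the CGC anticodon by Ala-CGC-1-2, and the TGC anticodon by Ala-TGC-1-1 and Ala-TGC-2-1. The names Ala-AGC-2-3 and Ala-CGC-1-2 each stand for a set of genes with 1 mature sequence, as the second name column of the table shows with Ala-AGC-2-X and Ala-CGC-1-X. The RefSeq annotation of the Release 6 assembly lists 11 genes for the Ala-AGC-2 sequence, 3 for Ala-CGC-1 and 1 for each of the other members, 17 in all. These are 5.86% of the 290 nuclear tRNA genes that matched an isodecoder of the table.

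The genes of each anticodon lie together. On chromosome 3R, 10 of the 12 AGC genes lie between positions 17619738 and 17668259, a stretch of 48.5 kb. That stretch also holds 3 Pro-TGG, 2 Thr-AGT and 1 Val-AAC gene, and the single gene of Ala-AGC-1-1 (17657145 to 17657217) sits within it, between copies of Ala-AGC-2. The other AGC genes are Ala-AGC-2-11, on 3R from 19790972 to 19791044, and Ala-AGC-2-1, which lies on 3L (8028546 to 8028618) inside *nmo*, a serine/threonine kinase gene. In the 48.5 kb stretch, Ala-AGC-2-5 lies inside *CG43175*, and Ala-AGC-1-1, Ala-AGC-2-9 and Ala-AGC-2-10 lie inside *CG14322*. The 3 CGC genes lie on 2R between 25076005 and 25077119, all inside *gol*, which encodes a RING-domain ubiquitin ligase. The pair of TGC genes also lies on 2R, Ala-TGC-1-1 from 17391774 to 17391845 and Ala-TGC-2-1 from 17392215 to 17392286. A gap of 369 bp separates them, and no other annotated gene spans either of them. The AGC genes are 73 bp long, and the CGC and TGC genes are 72 bp long. The annotation used gives spans only, so exon, intron and strand were not assigned.

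Ala-AGC-2-3 was the most abundant alanine tRNA in both groups, and Ala-AGC-1-1, with the same anticodon, was the least abundant. Ala-AGC-2-3 had a mean TMM of 180958 in neuroblasts and 253550 in neurons. That of Ala-AGC-1-1 was 6225 in neuroblasts and 7844 in neurons. Ala-AGC-2-3 thus exceeded its partner 29.1-fold in neuroblasts and 32.3-fold in neurons, and made up 96.7% and 97.0% of the AGC total. The AGC level in these brains is therefore almost wholly that of the Ala-AGC-2 sequence.

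Ala-CGC-1-2, the dedicated reader of GCG, had the second highest level, with a mean TMM of 74315 in neuroblasts and 81566 in neurons. Ala-TGC-2-1 had 30976 in neuroblasts and 55568 in neurons. Ala-TGC-1-1 had 25799 and 43295. The TGC isodecoders were close to each other in level, with Ala-TGC-2-1 higher 1.20-fold in neuroblasts and 1.28-fold in neurons. The order of the 5 isodecoders by level was the same in both groups. Whether neighbours in that order differ beyond the spread between samples could not be assessed.

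**Figure D1:**
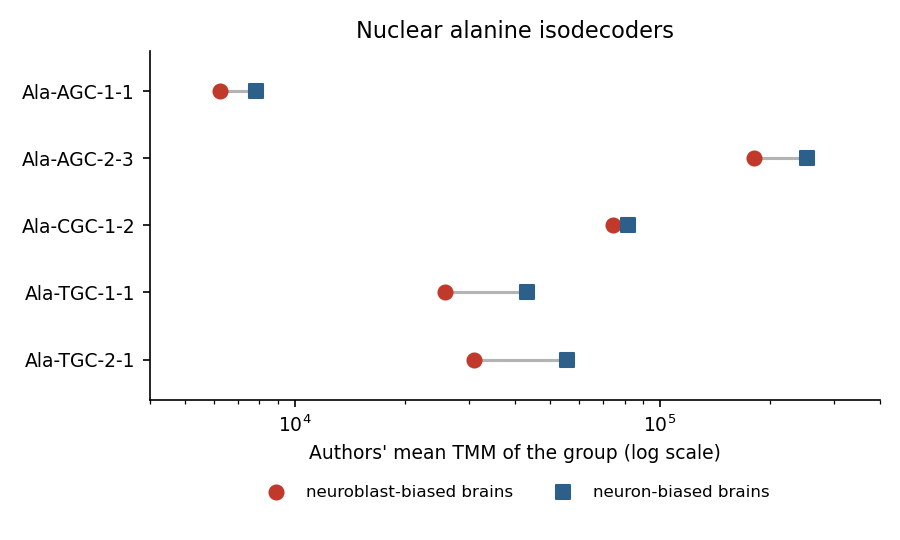
Mean TMM of the 5 nuclear alanine isodecoders on a log axis, in neuroblast-biased brains (circles) and neuron-biased brains (squares), each point being the authors' mean of a group, with no error bar because no value per sample was used. All circles lie to the left of their squares, with the widest gap for Ala-TGC-2-1 (30976 against 55568) and the narrowest for Ala-CGC-1-2 (74315 against 81566).

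All 5 alanine isodecoders had a lower mean TMM in neuroblasts than in neurons, as did 57 of the 84 nuclear isodecoders. The gap was not even across anticodons. The TGC isodecoders had the widest gaps, with a log2 ratio of neuroblast over neuron of −0.84 for Ala-TGC-2-1 and −0.75 for Ala-TGC-1-1, so that neurons had 1.79-fold and 1.68-fold the neuroblast level. Ala-AGC-2-3 followed at −0.49 and Ala-AGC-1-1 at −0.33. Ala-CGC-1-2 had the narrowest gap, at −0.13, or 1.10-fold. Counted from the most negative log2 ratio among the 84 nuclear isodecoders, Ala-TGC-2-1 ranked 11, Ala-TGC-1-1 ranked 15, Ala-AGC-2-3 ranked 29, Ala-AGC-1-1 ranked 37 and Ala-CGC-1-2 ranked 49.

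The median log2 ratio over the nuclear isodecoders was −0.27. Each alanine log2 ratio includes that general offset, which for Ala-CGC-1-2 was larger in size than the ratio itself. Relative to the median, Ala-TGC-2-1 was at −0.58, Ala-TGC-1-1 at −0.48 and Ala-AGC-2-3 at −0.22. Ala-AGC-1-1 was at −0.07, close to the median. Ala-CGC-1-2 was at 0.13, so its direction turns with the scaling. The TGC isodecoders were on the low side of the nuclear set, where a common scaling cannot change their ranks.

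A log2 ratio of 0.5 or more in size, was used to count differences. This is the fold part of the study's threshold, which also asked for a q-value, so these counts are of size alone and are no calls of differential expression. As deposited, 2 of the 5 alanine isodecoders, both with the TGC anticodon, were lower in neuroblasts by at least this much, and none was higher. Over all nuclear isodecoders, 33.3% were lower by this much and 8.33% were higher. Relative to the nuclear median, 1 alanine isodecoder, Ala-TGC-2-1, was lower by 0.5 or more and none was higher, beside 14.3% lower and 20.2% higher over all nuclear isodecoders. With 5 members these counts are near the background shares, and they say nothing particular of alanine.

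**Figure D2:**
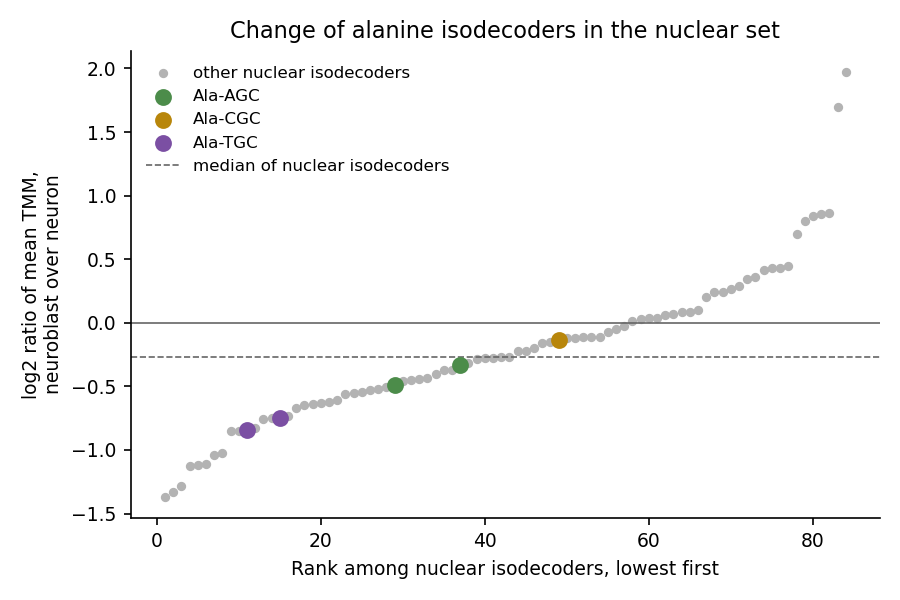
Log2 ratio of mean TMM, neuroblast over neuron, for the 84 nuclear isodecoders ordered by rank from the lowest, with alanine isodecoders coloured by anticodon. The solid line marks 0 and the dashed line the nuclear median of −0.27. The TGC isodecoders sit at ranks 11 and 15, the AGC isodecoders at 29 and 37, and Ala-CGC-1-2 at 49.

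Summed over the family, in which 11 of the 17 genes are those of Ala-AGC-2-3, alanine tRNAs were low for their number of genes. They summed to a mean TMM of 318273 in neuroblasts and 441823 in neurons, 2.37% and 2.67% of the nuclear total, from 5.86% of the genes. Per gene, the family had a mean TMM of 18722 in neuroblasts and 25990 in neurons, while all nuclear tRNAs together had 46378 and 57050. No other single family was set beside it per gene, so a low level is not shown to be particular to alanine. Among 22 families, with initiator methionine and selenocysteine counted apart, alanine ranked 16 by summed TMM in neuroblasts and 15 in neurons. The log2 ratio of the family sum was −0.47, which ranked 7 of the 22 from the most negative, and −0.21 relative to the nuclear median.

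The level per gene was below the median of the nuclear isodecoders, 30264 in neuroblasts and 42713 in neurons, for 4 of the 5 members in neuroblasts and for 3 in neurons. The AGC isodecoders were the lowest, with 16451 per gene for Ala-AGC-2-3 in neuroblasts and 23050 in neurons. By level per gene among the 84 nuclear isodecoders, Ala-AGC-2-3 ranked 51 in neuroblasts, next to Ala-CGC-1-2 at 50 and Ala-TGC-1-1 at 49, and in neurons they ranked 54, 50 and 41. Only 3 other nuclear isodecoders have as many genes or more, Asp-GTC-1, Gly-GCC-1 and Lys-CTT-1, and the lowest of them had a mean TMM of 674233 in neuroblasts and 838799 in neurons, far above Ala-AGC-2-3. A low level per gene was not particular to Ala-AGC-2-3. Among isodecoders with 7 to 10 genes, Pro-AGG-1 (10980 in neuroblasts, 19523 in neurons) and Glu-CTC-3 (13356 and 22452) were lower per gene in both groups. Leu-CAG-1 was lower in neuroblasts only (16083 and 24818), and the rest were higher in both groups. Ala-CGC-1-2 had 24772 per gene in neuroblasts and 27189 in neurons. Among the 7 isodecoders with 3 genes it ranked 4 in both groups, in the middle of the set. The single genes of Ala-TGC-1-1 and Ala-TGC-2-1 exceeded the value per gene of Ala-AGC-2-3 by 1.57-fold and 1.88-fold in neuroblasts, and by 1.88-fold and 2.41-fold in neurons. Among the 38 isodecoders with 1 gene, Ala-TGC-2-1 ranked 16 in neuroblasts and 15 in neurons, Ala-TGC-1-1 ranked 19 and 18, and Ala-AGC-1-1 ranked 31 and 27. A value per gene assumes that all copies contribute alike, which reads of identical mature sequences cannot show.

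**Figure D3:**
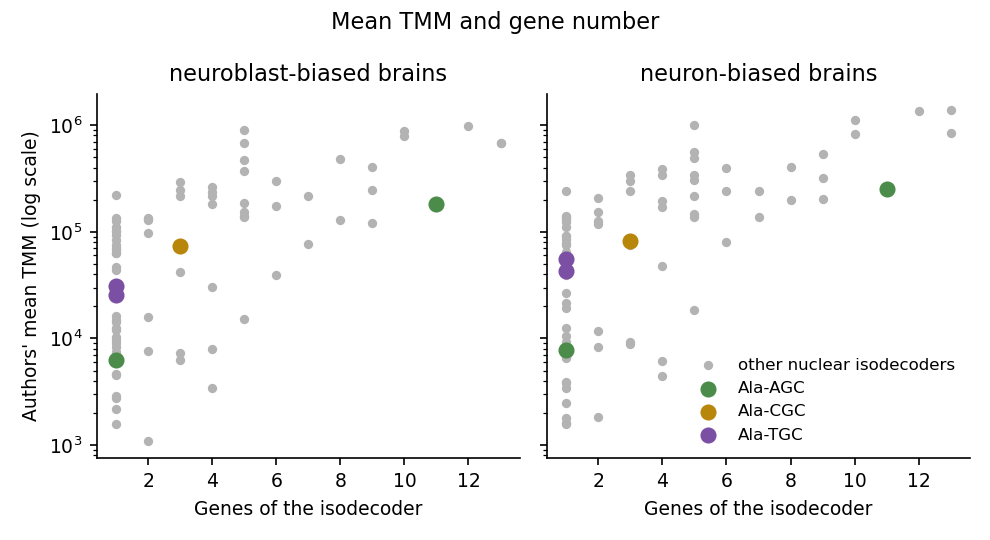
Mean TMM on a log axis against the number of genes of each of the 84 nuclear isodecoders, in neuroblast-biased (left) and neuron-biased brains (right), with alanine isodecoders coloured by anticodon. Ala-AGC-2-3, with 11 genes, lies below the 3 other isodecoders with as many genes or more, while Ala-CGC-1-2 and the TGC isodecoders lie within the range of isodecoders with the same gene number.

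In the alanine pool as a whole, the share of the inosine-type AGC reader was nearly the same in both groups, and the shares of the other anticodons moved in opposite directions. Summed over isodecoders, AGC had a mean TMM of 187183 in neuroblasts and 261394 in neurons, or 58.8% and 59.2% of the pool. CGC made up 23.3% of the pool in neuroblasts and 18.5% in neurons, a share higher by 4.89 percentage points in neuroblasts. TGC, with a sum of 56775 in neuroblasts and 98863 in neurons, made up 17.8% and 22.4%, and its share in neuroblasts differed by −4.54 percentage points from that in neurons. A common scaling of a group cancels in these shares. By genes, AGC holds 70.6%, CGC 17.6% and TGC 11.8% of the family, so AGC took less of the pool than of the genes in both groups, and TGC took more.

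The balance of AGC to the sum of both other anticodons was 1.43 in neuroblasts and 1.45 in neurons. The ratio of CGC to TGC was 1.31 in neuroblasts and 0.83 in neurons, so that CGC was above TGC in neuroblasts and below it in neurons. The log2 ratio between the groups was −0.02 for the first balance and 0.67 for the second. This reversal of order holds for summed levels. The study averaged isodecoders within an anticodon, which divides AGC and TGC by their number of isodecoders, 2, and leaves CGC as it is. On averages, CGC was above TGC in both groups, 2.62-fold in neuroblasts and 1.65-fold in neurons, and AGC made up 47.7% and 49.9% of the pool. The direction of the CGC and TGC shares between groups was the same either way.

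**Figure D4:**
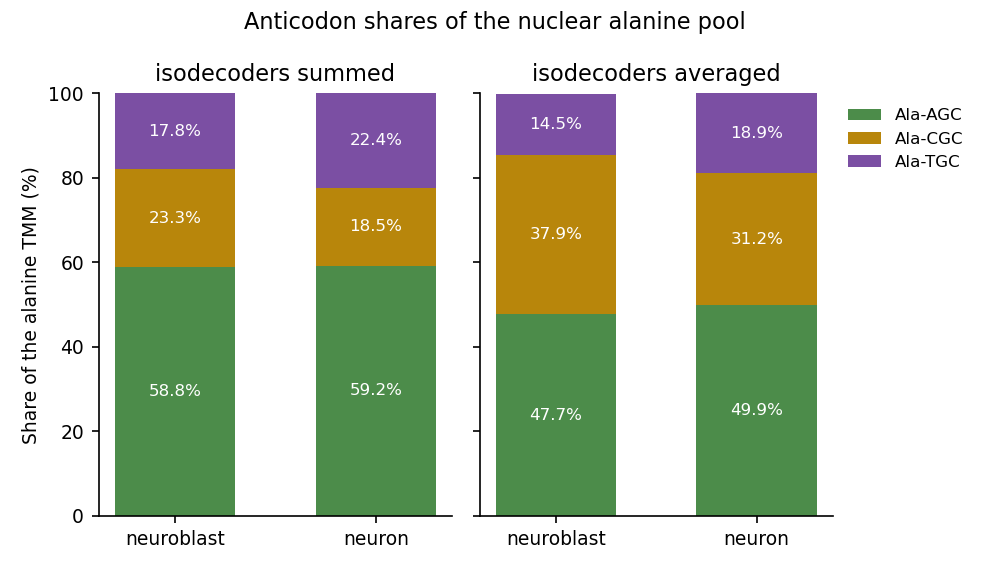
Stacked shares of the AGC, CGC and TGC anticodons in the nuclear alanine mean TMM, in percent, for each group, with the isodecoders of an anticodon summed (left) or averaged (right). Summed, AGC stays near 59% (58.8% and 59.2%) while CGC is larger and TGC smaller in neuroblasts, and the averages give AGC a smaller share in both groups.

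As deposited, the difference in the family total was carried mostly by AGC and TGC. Of the 123550 TMM by which the alanine sum was lower in neuroblasts, Ala-AGC-2-3 accounted for 58.8%, Ala-TGC-2-1 for 19.9% and Ala-TGC-1-1 for 14.2%. Ala-CGC-1-2 accounted for 5.87% and Ala-AGC-1-1 for 1.31%. The TGC anticodon thus held 34.1% of the difference with 22.4% of the neuron pool, and AGC held 60.1% with 59.2%. These parts include the general offset of −0.27 and change with the scaling. Relative to the nuclear median, Ala-CGC-1-2 was not lower in neuroblasts, at 0.13. Within an anticodon, isodecoders kept their proportions closely: Ala-TGC-2-1 was 54.6% of the TGC sum in neuroblasts and 56.2% in neurons, and Ala-AGC-1-1 was 3.33% and 3.00% of the AGC sum. Isodecoders that are near-identical share reads, because reads that mapped to several references were divided among them, so similar values within an anticodon can come from the counting, which was not tested.

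Weighted by decoding rules and set relative to the best supplied codon, GCA and GCG were the codons whose supply could differ between the groups. The supply of a codon was calculated as the sum of the anticodon levels that read it, each reduced by a wobble penalty (0.28 for inosine with C, 0.68 for U with G, and close to 1 for inosine with A), and divided by the largest of the 4 alanine codons. GCU had the largest supply in both groups, so its value is 1 by construction. GCC, which in this index only the same tRNA reads, is then 0.720 in both by construction too. These equal values say nothing of the AGC level, which was lower in neuroblasts. GCA had 0.303 in neuroblasts and 0.378 in neurons. GCG had 0.494 in neuroblasts and 0.433 in neurons. These values are relative to the AGC level of the same group and are no levels themselves. CGC and TGC, which read GCG, both had lower summed levels in neuroblasts (74315 against 81566, and 56775 against 98863). The GCG supply before division was therefore lower in neuroblasts too. Wobble reading by TGC made up 19.6% of the GCG supply in neuroblasts and 27.9% in neurons. With these penalties GCG was above GCA in both groups, and the distance between them was wider in neuroblasts. Without any reading of GCG by TGC, GCG had 0.397 in neuroblasts and 0.312 in neurons, so that in neurons it fell below GCA, and the order of these codons there depends on the wobble rule. On averaged isodecoders the GCG supply was 0.891 in neuroblasts and 0.745 in neurons, above that of GCC, while GCA kept its values because AGC and TGC are divided alike.

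The same set of anticodons, starting with A, C or T, serves the 4-codon boxes of proline, serine, threonine and valine and the CUN box of leucine, which make 6 boxes with alanine. On summed levels, the anticodon starting with A exceeded the others together in alanine and in serine, where its balance was 2.57 in neuroblasts and 3.05 in neurons, and not in the other boxes, where it lay between 0.334 in proline and 0.894 in leucine. Between the groups, the alanine balance on summed levels changed least of the 6 boxes, with a log2 ratio of −0.02 beside 0.23 for proline, −0.25 for serine, −0.21 for threonine, 0.73 for valine and 0.10 for leucine. On averaged isodecoders it was −0.13 for alanine, −0.07 for serine and 0.10 for leucine, so serine and leucine then changed less, and the alanine balance itself lay below 1, at 0.911 in neuroblasts and 0.998 in neurons. The ratio of the anticodon starting with C to that starting with T behaved otherwise. Its log2 ratio between the groups was 0.67 in alanine, 0.24 in proline, 0.01 in leucine, −0.04 in threonine, −0.25 in valine and −1.43 in serine, so alanine had the most positive value of the 6, and it was the only box on summed levels in which this ratio lay above 1 in one group and below 1 in the other. Among the 45 nuclear anticodon groups, Ala-TGC ranked 8, Ala-AGC ranked 16 and Ala-CGC ranked 30 from the most negative log2 ratio of the sum, which was −0.80, −0.48 and −0.13. The difference between alanine and the other boxes was not tested, since each box gives 1 value per group.

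**Figure D5:**
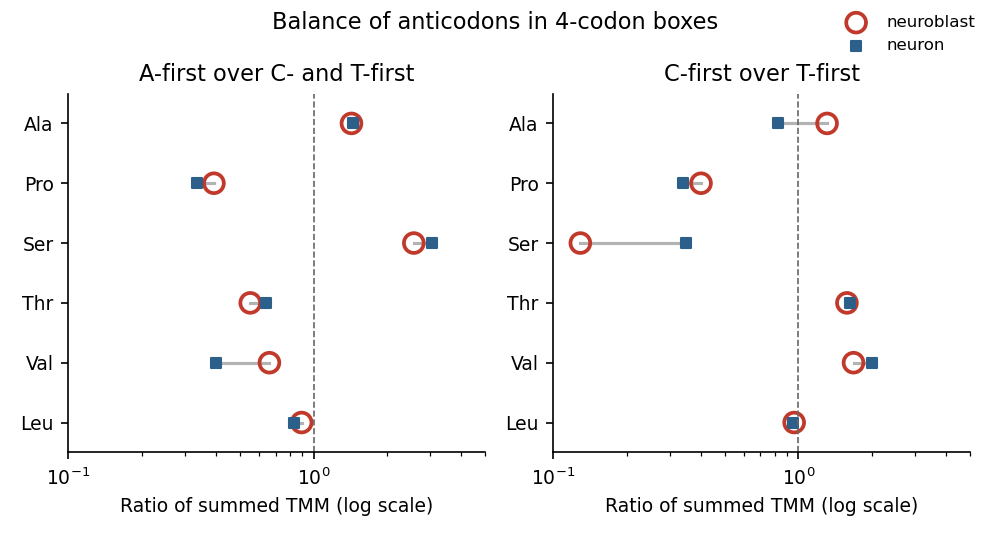
Ratios of summed mean TMM in the 4-codon boxes of alanine, proline, serine, threonine, valine and leucine (CUN) on log axes, for neuroblast-biased (open circles) and neuron-biased brains (squares). Left, the anticodon starting with A over both others, which for alanine is 1.43 and 1.45. Right, the anticodon starting with C over that starting with T, which for alanine lies at 1.31 in neuroblasts and 0.83 in neurons, on either side of the dashed line at 1.

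The mitochondrial genome encodes its own alanine tRNA with the TGC anticodon, which serves the mitochondrial ribosome. It had a mean TMM of 54073 in neuroblasts against 43625 in neurons, for a log2 ratio of 0.31, opposite in sign to the nuclear TGC isodecoders. The median over the 22 mitochondrial tRNAs was 0.79, and mitochondrial Ala-TGC ranked 7 from the lowest. Its level was 0.952 times the nuclear TGC sum in neuroblasts and 0.441 times in neurons.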

How the data were processed

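The 3 samples of each group were assigned by their titles. According to the methods of the study, the authors removed adaptors (cutadapt), aligned reads (subread-align) to non-redundant mature tRNAs ending in CCA, and counted them (featureCounts) with multi-mapped reads divided among references. NOISeqBio was used for TMM normalization, batch correction and testing. The batches are not given in the sources used here. The deposited values are a normalized signal, the authors' mean TMM of each group. The table also holds the authors' own comparison (fold changes, theta, probabilities, q-values), which was not used. Modified bases, such as inosine, can change how reads map, which was not tested.

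Log2 ratios, sums, shares and codon supplies were calculated from the means without a pseudocount or filter, with Python 3.11.15, numpy 2.4.6 and pandas 2.3.3, and plotted with matplotlib 3.10.9. On simulated data, the calculations of log2 ratios relative to the nuclear median and of anticodon shares recovered the planted values, which checks the arithmetic only. Codon supplies and values per gene were not tested in this way. Genes were matched by name to the RefSeq annotation of Release 6, for 84 of 84 nuclear isodecoders. Limma and permutation tests had been planned for values per sample and were not run, as the table holds means. Leave-one-out and blocked fits were not run for the same reason. All 5 members are named, with the 4-codon boxes that have anticodons starting with A, C and T in the table, of which leucine was added after the values were seen. Members and lists were chosen with earlier results of these data known.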

Additional observations from a re-analysis of the deposited data

How the results depend on the processing

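No paired analysis was possible because the table holds 1 mean per group, and for the same reason no replicate could be left out in turn. Without a spread, a value was counted as moved when it changed by over 10%, or by over 0.1 for a log2 ratio. Setting the nuclear median log2 ratio to 0 gave −0.066 for Ala-AGC-1-1, −0.22 for Ala-AGC-2-3, 0.13 for Ala-CGC-1-2, −0.48 for Ala-TGC-1-1 and −0.58 for Ala-TGC-2-1, and left 1 isodecoder lower by 0.5 or more. Giving both groups an equal summed TMM gave −0.068, −0.22, 0.13, −0.48 and −0.58 for the same isodecoders in that order, again with 1 lower. With a fold of 0.25 there were 4 lower, and with a fold of 1 there were 0. No p-value stands behind these counts. Averaging isodecoders moved the AGC share to 47.7% in neuroblasts and 49.9% in neurons, CGC to 37.9% and 31.2%, and TGC to 14.5% and 18.9%. It moved the AGC balance to 0.911 and 0.998, the GCG supply to 0.891 and 0.745, and the ratio of CGC to TGC, an alternative added after seeing the data, to 2.62 and 1.65. Without penalties for inosine with C and U with G, and without reading of GCA by inosine, GCC had a supply of 1 in both groups and GCG had 0.70 in neuroblasts and 0.690 in neurons. Without reading of GCG by TGC, GCG had 0.397 and 0.312, in neurons below GCA. Adding a pseudocount of 100, requiring a mean TMM of 10000 in both groups (which drops Ala-AGC-1-1) and counting mitochondrial tRNAs in the denominator moved none of the values they were applied to.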
